A study of Solanum lycopersicum with 18 samples.

Results

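Delila and Rosea are the transgenes of a dexamethasone-inducible expression system introduced into tomato (Solanum lycopersicum), and they encode regulators from snapdragon. Delila is a basic helix-loop-helix (bHLH) transcription factor and Rosea, named Rosea1 in the series' design text, is an R2R3-MYB transcription factor. They are the 2 rows of the authors' deposited table named Delila and Rosea, out of 5295 features, and the other 5293 are tomato gene models. Dexamethasone (DEX) is a synthetic glucocorticoid that switches such a system on. RNA was sequenced from roots at 24 h and 3 h after 10 mg/L DEX and from roots not induced, and from callus, undifferentiated tissue grown in culture, at the same times and not induced, with 3 libraries in each of the 6 groups. The design text describes the induced and uninduced tissue alike as coming from tomato given the inducible system. The sources used here do not give the variety, the line or lines, the promoter of each transgene or the sampling time of the uninduced tissue. The labels hold no group that got DEX but lacks the transgenes, so an effect of DEX itself cannot be told apart from one of the regulators.

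The table holds 1 fold per feature for each of 4 comparisons, roots and callus at each time. Values per library were not analysed here. Depth, replicate spread and the error of each fold are therefore unknown, and no difference below carries a test over samples. The reference of each fold is not named in the file headers and was taken to be that tissue without induction, since the transgene values lie far above 1 throughout. The transgene folds are therefore no check of the labels. Higher means a fold of at least 2 over uninduced tissue. By its file name the table keeps features that passed a false discovery rate of 0.05 and a change of 2-fold in at least 1 comparison, so ranks and shares below are among selected features. No genome position is given for the transgenes, and their sequences were not analysed here.

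Anthocyanins are red to purple flavonoid pigments made from phenylalanine in the cytosol and stored in the vacuole. In many plants the genes of their synthesis are switched on by a complex of a MYB factor, a bHLH factor and a WD-repeat protein, and in snapdragon flowers the genes Rosea and Delila supply the first and the second of these. Tomato has its own members of the complex, and its vegetative tissues usually hold little pigment.

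Both transgenes were higher in every comparison, by at least 39.2-fold. Features at least 2-fold higher made up 11.7% of the table in roots at 24 h, 31.3% in roots at 3 h, 18.0% in callus at 24 h and 27.8% in callus at 3 h, and 4.17% were higher in all 4 comparisons. The authors' deposited table lists Delila at 224-fold over uninduced roots at 24 h, against 450.1-fold at 3 h. In callus the authors' deposited table lists it at 39.2-fold at 24 h, against 69.3-fold at 3 h. Both root folds of Delila were thus above both of its callus folds. For Rosea the root values in the authors' deposited table were 98.5-fold at 24 h, against 294-fold at 3 h. In callus the authors' deposited table has Rosea at 62.1-fold at 24 h, against 235-fold at 3 h. Rosea was ordered by time before tissue, with both 3 h folds above both 24 h folds. A fold divides by the uninduced level, which for a switched-off transgene can be near 0 and is not known here, so the fold does not give the level of either transcript.

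**Figure D1:**
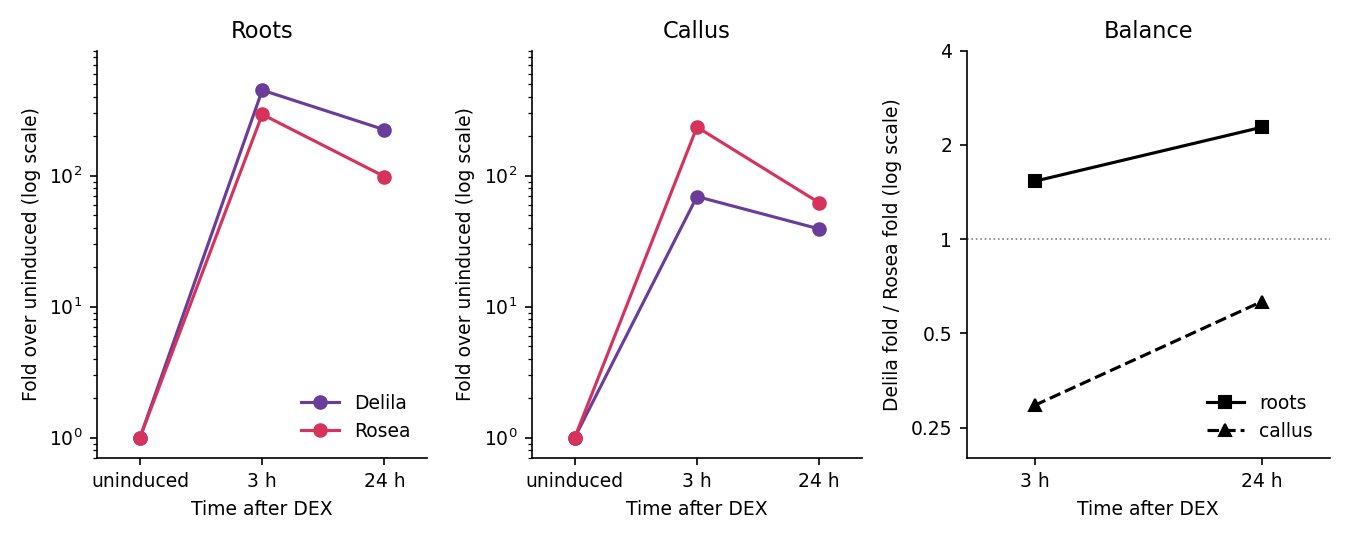
Left and middle: fold of Delila and Rosea over the uninduced tissue, which is 1 by definition, at 3 h and 24 h in roots and callus, on a log axis, with 1 value per point and no error known. Right: Delila fold divided by Rosea fold, on a log axis. Both transgenes have their highest fold at 3 h. The balance of folds is above 1 in roots and below 1 in callus, which does not give the ratio of the transcript levels.

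Despite these folds, neither transgene had the highest fold in any comparison. In roots, 18 features at 24 h and 9 at 3 h had a higher fold than Delila, and in callus the numbers were 32 and 21. For Rosea, 30 features had a higher fold in roots at 24 h and 13 at 3 h, against 27 and 8 in callus. These counts are at most 0.604% of the table. In roots, most of the tomato features above either transgene were on a list of anthocyanin genes and regulators. The list was chosen with earlier results of these data known, and 17 of its members are among the 5295 features. Of the 9 tomato features above Delila in roots at 3 h, 8 belonged to this list, and 11 of the 12 above Rosea did. In callus at 3 h all 8 tomato features above Rosea were on the list, but 9 of the 20 above Delila. At 24 h the list made up 14 of the 18 tomato features above Delila in roots and 14 of the 31 in callus, and 15 of 29 and 14 of 27 above Rosea.

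The immediate neighbours in rank were mostly flavonoid genes at 3 h in roots. Delila at 450.1-fold lay between Solyc09g059170, described as an anthocyanidin 3-O-glucosyltransferase, at 581-fold and chalcone synthase CHS1 at 443-fold in the authors' deposited table. Rosea at 294-fold lay between CHIL, a chalcone isomerase-like protein, at 308-fold and the cytochrome P450 Solyc03g025640 at 263-fold in the authors' deposited table. In roots at 24 h, Delila came next below anthocyanidin synthase at 232-fold and next above CER1 (Solyc00g278110), named for a wax synthesis enzyme, at 199-fold in the authors' deposited table. Rosea came between a short-chain dehydrogenase (Solyc10g086390) at 98.7-fold and a GDSL esterase (Solyc11g006250) at 94.7-fold there. In callus the neighbours were more mixed. Delila at 3 h lay between the TBC1 domain protein Solyc02g071420 at 73.8-fold and AN1, a tomato bHLH regulator of anthocyanin synthesis, at 68.9-fold in the authors' deposited table. At 24 h it lay between a heme-binding protein (Solyc07g061800) at 43.1-fold and a glutamate receptor-like channel subunit (Solyc06g063190) at 38.0-fold in the authors' deposited table. Rosea in callus at 24 h had as neighbours in the authors' deposited table a seed maturation protein (Solyc10g078770) with 62.3-fold and a cytochrome B5 (Solyc04g078140) with 59.6-fold. At 3 h it lay between the MATE transporter of the anthocyanin list at 305-fold and a G-family ABC transporter (Solyc12g098210) at 186-fold in the authors' deposited table.

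**Figure D2:**
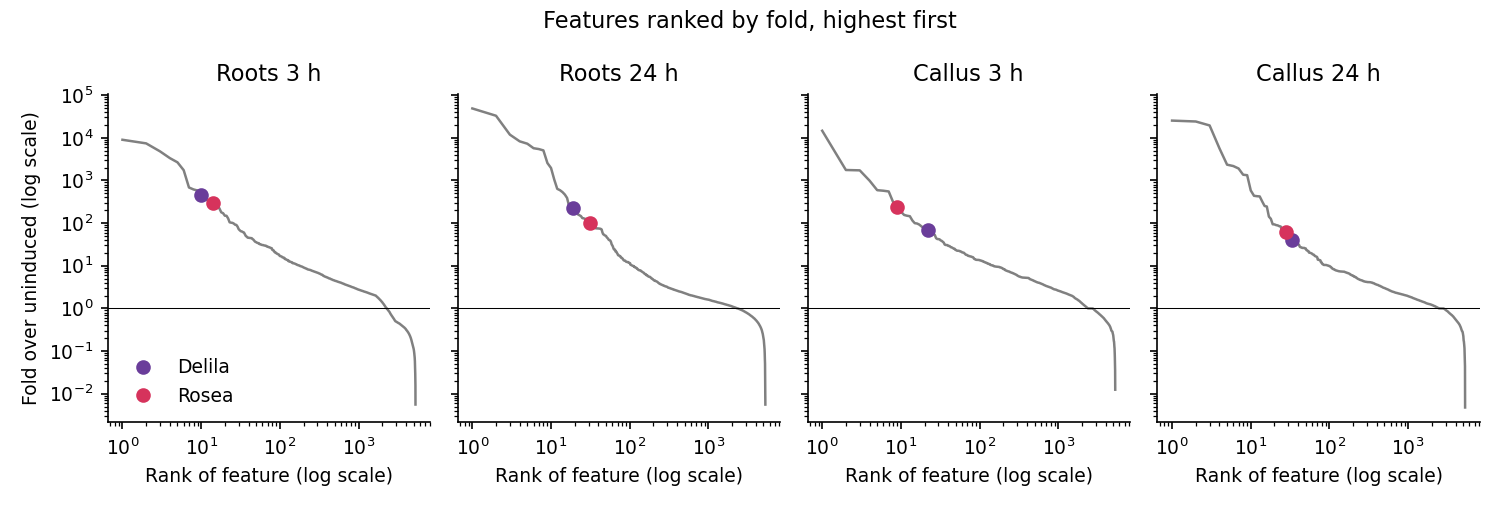
All 5295 features of each comparison ranked by fold over uninduced tissue, highest first, with both axes on log scales; the grey line is the table and the points are Delila and Rosea. The transgenes lie among the 33 highest folds in each of the 4 comparisons, below the top of the line.

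The fold of each transgene at 24 h was below that at 3 h in both tissues. The 24 h to 3 h ratio of Delila was 0.498 in roots and 0.566 in callus. The ratio of Rosea was 0.335 in roots and 0.264 in callus. The uninduced level cancels in these ratios, because both folds of a tissue share it, and each ratio compares the induced libraries directly. The root columns had different medians over all features, a log2 fold of -0.13 at 24 h and -0.58 at 3 h, while both callus medians were 0. In callus 538 features had a fold of exactly 1 at either time or the same fold at both, against 48 in roots. Whether such features set the callus medians was not tested. With each column divided by its median, the root ratios were 0.365 for Delila and 0.246 for Rosea. This scaling lowers every root ratio, because the 3 h median is the lower, so it could not have turned the direction.

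A lower fold at 24 h was the usual course of features that were higher at 3 h. Of the 1657 features at least 2-fold higher in roots at 3 h, 93.4% had a lower fold at 24 h, with a median 24 h to 3 h ratio of 0.463. In callus it was 87.2% of 1473 features, with a median of 0.553. These features were chosen by their 3 h value, by which the ratio divides. Delila was close to the median of these features in both tissues, with 56.5% of them at a lower ratio in roots and 52.6% in callus. For Rosea the shares at a lower ratio were 28.8% in roots and 16.3% in callus. The place of both transgenes depended on which features they were set against. Among the 178 features at least 10-fold higher in roots at 3 h, 72.5% had a lower ratio than Delila and 62.9% a lower one than Rosea. Among the 149 such features in callus the shares were 63.8% for Delila and 35.6% for Rosea. The median ratio of these features was 0.183 in roots and 0.355 in callus, below both ratios of Delila.

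**Figure D3:**
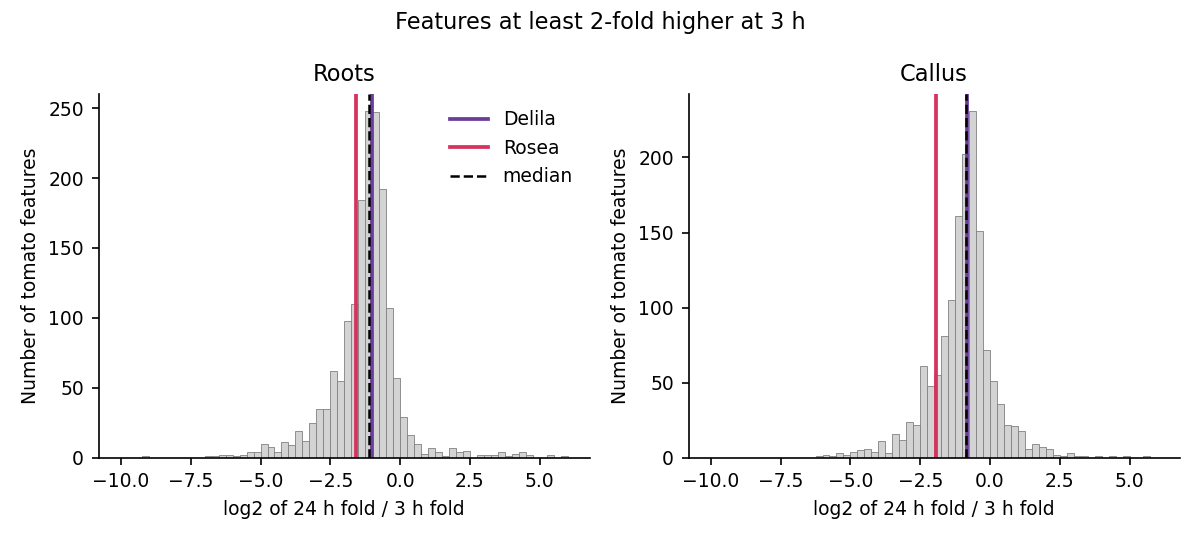
Number of tomato features, of those at least 2-fold higher at 3 h, by the log2 of the 24 h fold divided by the 3 h fold, in roots (left) and callus (right), in bins of 0.25. Delila lies next to the median (dashed line) and Rosea below it in both tissues.

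The balance of folds of the bHLH to the MYB transgene differed between the times and between the tissues. The Delila fold divided by the Rosea fold was 2.28 in roots at 24 h and 1.53 at 3 h. In callus it was 0.631 at 24 h and 0.294 at 3 h. Delila thus had the larger fold of the pair in roots and the smaller in callus, at both times. Each transgene has its own uninduced level, so the side of 1 does not tell which transcript was more abundant. From 3 h to 24 h the balance was multiplied by 1.49 in roots and by 2.14 in callus, so it moved toward Delila in both tissues. This change over time does not depend on the uninduced levels, which cancel, nor on any factor that scales a whole column. Its error over libraries is unknown, and 2 values of the same direction are no test.

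Between tissues the balance of folds was 3.61 times as high in roots as in callus at 24 h and 5.20 times at 3 h. Here the uninduced levels do not cancel, since roots and callus have their own, and a different ratio of the transgenes before induction would give the same figures. The 2 transgenes both had larger folds in roots than in callus, by a larger factor for Delila. The fold of Delila in roots was 5.72 times that in callus at 24 h and 6.50 times at 3 h, while Rosea had 1.59 and 1.25 times. Among the 345 features at least 2-fold higher in both tissues at 24 h, 4.64% had a larger root to callus ratio than Delila and 18.8% a larger one than Rosea. At 3 h, of 823 such features, the shares were 2.79% and 35.5%. With each column divided by its median the root to callus ratio of Rosea was 1.74 at 24 h and 1.87 at 3 h, so its order between the times turned round under this scaling.

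While the transgene folds were lower at 24 h, those of most anthocyanin list members among the selected features were higher. The list holds 26 identifiers of the pathway. Of these, 17 were among the features, which had passed the authors' selection in at least 1 comparison, and the other 9 were not. The absent members were the structural genes F3'H and FLS and the regulators JAF13, ANT1, AN2, ANT1-like, AN2-like, SlTRY and MYB12. Their folds are not known here. The 17 are 8 structural genes of pigment synthesis, 6 genes of decoration and transport and 3 regulators. In roots all 17 were at least 2-fold higher at 24 h and all 17 at 3 h, and in callus 17 and 16. The shares of all 5295 features were 11.7% and 31.3% in roots, and 18.0% and 27.8% in callus, in the same order. The list was chosen with earlier results known and its 17 members had passed the selection, so high counts were favoured in advance. Between the times, 13 of the 17 had a larger fold at 24 h than at 3 h in roots and 15 of 17 in callus. Of all 5295 features, 51.4% in roots and 39.8% in callus had a larger fold at 24 h. Equal folds at both times do not count as larger. These shares are not matched to the list by the 3 h fold. Of features at least 2-fold higher at 3 h, 93.4% in roots and 87.2% in callus had a lower fold at 24 h. The median 24 h to 3 h ratio of the list was 2.07 in roots and 3.77 in callus. With each column divided by its median, 11 of 17 members in roots and 15 in callus had a larger fold at 24 h. The root share of all features under this scaling was not computed, so 51.4% is not its comparator.

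The member with the largest ratio in roots was AOMT (Solyc09g082660), an O-methyltransferase of anthocyanins, at 20.1. In callus it was CHS2 (Solyc05g053550), one of the chalcone synthases that catalyse the first committed step of flavonoid synthesis, at 53.6. CHS2 was the list member not at least 2-fold higher in callus at 3 h, with a fold of 1.67, against 89.7 at 24 h. F3'5'H (Solyc11g066580), the hydroxylase that directs the route to delphinidin-type pigments, had 18.9 in roots and 45.9 in callus. Dihydroflavonol 4-reductase (DFR, Solyc02g085020), a late step of the pathway, was nearly level, at 1.13 in roots and 1.33 in callus. The 3-glucosyltransferase (3GT, Solyc10g083440), which attaches the first sugar, was below 1 in both tissues, at 0.777 in roots and 0.761 in callus. No list member had a lower ratio than Rosea in either tissue, and 1 in roots and 0 in callus had a lower ratio than Delila. Of the features at least 2-fold higher at 3 h, 28.8% in roots and 16.3% in callus had a lower ratio than Rosea. For Delila these shares were 56.5% and 52.6%. The shares over all 5295 features were not computed, and the list was chosen with earlier results known, so the counts are description only.

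**Figure D4:**
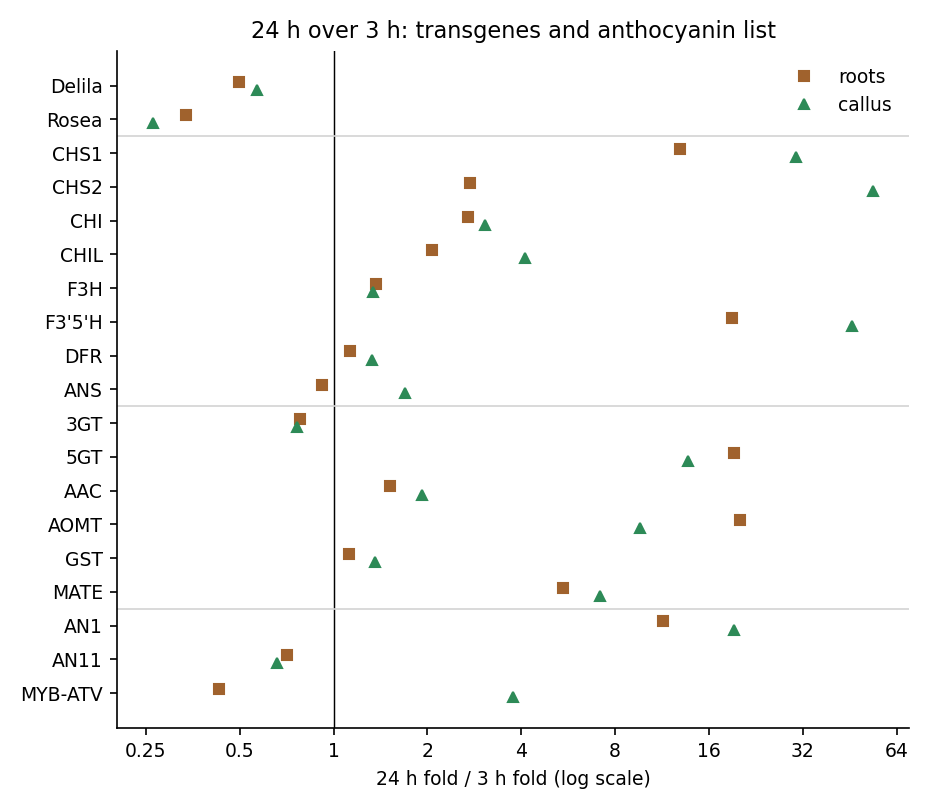
The 24 h fold divided by the 3 h fold of the 2 transgenes and the 17 anthocyanin list members, in roots (squares) and callus (triangles), on a log axis, with groups separated by grey lines. Both transgenes lie left of 1 in both tissues, while 13 list members in roots and 15 in callus lie right of it.

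The 3 tomato regulators of the list that were among the features took different courses. AN1 (Solyc09g065100) is a bHLH factor of the same pathway as Delila. In callus at 24 h, when the authors' deposited table has AN1 at 1328-fold, the fold of Delila was 0.0295 times that of AN1, against 1.01 times at 3 h. In roots the fold of Delila was 0.0877 times that of AN1 at 24 h and 2.01 times at 3 h. Column scaling cancels in these ratios, but each gene has its own uninduced level. Apart from AN1, the tomato features whose description or listed protein domain names bHLH, 46 with it, had folds of at most 22.9, for Solyc03g044460 in callus at 24 h in the authors' deposited table. Delila was thus above each of these in each of the 4 comparisons.

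MYB-ATV (Solyc07g052490) is a tomato MYB repressor of anthocyanin synthesis. Its fold was 146 in roots at 24 h and 341 at 3 h in the authors' deposited table, a 24 h to 3 h ratio of 0.427, near those of the transgenes. In callus its ratio was 3.77, the other way from Rosea. The fold of Rosea was 0.675 times that of MYB-ATV in roots at 24 h and 0.861 times at 3 h, and 0.733 and 10.5 times in callus. Of 63 tomato features described as MYB, 1 in roots at each time, 2 in callus at 24 h and 0 in callus at 3 h had a higher fold than Rosea. The second in callus at 24 h was Solyc10g055410 at 83.2-fold in the authors' deposited table. AN11 (Solyc03g097340), the WD-repeat partner, had small folds that were also lower at 24 h, 2.94 in roots at 24 h and 4.14 at 3 h, and 2.87 and 4.35 in callus, in the authors' deposited table.

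The features nearest to each transgene in pattern were found by the root mean square distance of log2 folds over the 4 comparisons, after each feature's own mean was subtracted. The search covered the 221 features with a fold of 2 or more in every comparison. The transgenes lay 1.14 log2 units apart from each other. Rosea had closer neighbours than Delila. Its nearest was Solyc10g085380, an alcohol dehydrogenase fragment, at 0.13 log2 units, with folds in the authors' deposited table of 2.80 in roots at 24 h and 9.61 at 3 h, and 2.17 and 6.70 in callus. The next 4 lay at 0.24 to 0.26, and were a U-box protein (Solyc05g015070), of a family of ubiquitin ligases, a pentatricopeptide repeat protein (Solyc01g096200), of a family that acts on organelle RNA, a mitochondrial phosphate carrier (Solyc03g097840) and a protein kinase (Solyc09g056430). All 5 neighbours of Rosea had folds of 2.17 to 2.53 in callus at 24 h, near the search limit of 2. Of those of Delila, Solyc09g074350 at 2.24 and Solyc04g072760 at 2.08 were also near it. How densely features fill each pattern was not tested.

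For Delila the nearest was Solyc03g120620, described as the homeobox-leucine zipper protein ATHB-15, of a family that patterns vascular tissue in Arabidopsis, at 0.34 log2 units. Its folds were 30.2 in roots at 24 h and 39.0 at 3 h, and 5.92 and 6.40 in callus, as listed in the authors' deposited table. Next, an unknown protein (Solyc09g074350) at 0.49 had 24 h to 3 h ratios of 0.503 in roots and 0.507 in callus, close to those of Delila. A stearoyl-acyl carrier protein desaturase (Solyc06g054670), which makes unsaturated fatty acids, a subtilisin-like protease (Solyc07g056170) and a sulfate transporter (Solyc04g072760) lay at 0.56 to 0.60. Likeness here is of pattern and not of size. The largest fold of the 10 features was that of the desaturase, which the authors' deposited table lists in roots at 125 at 24 h and 148 at 3 h, against 224 and 450.1 for Delila.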

How the data were processed

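Per the labels' protocols, stranded mRNA libraries of 18 samples were read paired-end on an Illumina instrument. The submitters' processing notes name CASAVA 1.8.1, and per the file headers the folds are CLC bio output. Aligner, genome build, counting and normalization: not given in the sources used here. Per the file headers, the authors deposited for each comparison a signed fold (a score that is negative for a reduction), a linear ratio made from it, and that ratio's log10. The 2 files held the same signed folds, with a largest difference of 0.

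The ratio columns gave log2 folds, ranks, ratios between times, tissues and transgenes, counts at a fold of at least 2 and pattern distances. Python 3.11.15, numpy 2.4.6 and pandas 2.3.3 were used, with matplotlib 3.10.9 for the plots. The functions for ranks, time ratios and nearest features were run on folds shuffled within each column, with made-up rows set in. That check tests the code and not the results. No counts, p-values or values per library were analysed here, so the tests over libraries listed in the design could not be run, and depth and precision are unknown. The members and lists were chosen with earlier results of these data known. Named genes were the transgenes, all members of the anthocyanin list among the features, counted or named, the neighbours in rank and the 5 nearest in pattern to each transgene. MYB and bHLH features were found by words in the descriptions, listed protein domains included, and those named from them were chosen after their values were seen. Short names such as DFR come from the list, because the table gives descriptions and no symbols, and the supplied RefSeq gene table matched 0 identifiers.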

Additional observations from a re-analysis of the deposited data

How the results depend on the processing

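The signed fold and log10 columns are other notations of the ratio and gave the same values by construction. With each column divided by its median ratio, the folds of Delila were 246 in roots at 24 h and 673 at 3 h, and those of Rosea 108 and 439.7. The root 24 h to 3 h ratios were then 0.365 for Delila and 0.246 for Rosea. The root to callus ratios were 6.28 at 24 h and 9.72 at 3 h for Delila, and 1.74 and 1.87 for Rosea. Each kept its side of 1, but this was fixed in advance. Both root medians were below 1 and the 3 h median was the lower, so these values could only move further from 1. Callus folds, with a median of 1, and the Delila to Rosea balance cannot move under this scaling. Among features at least 4-fold higher at 3 h, the share with a lower 24 h to 3 h ratio than Rosea was 55.2% in roots and 30.5% in callus, and at a 10-fold limit 62.9% and 35.6%. For Delila the shares were 76.0% and 66.8% at 4-fold, and 72.5% and 63.8% at 10-fold. The cause was not tested. For 48 root and 538 callus features the fold was exactly 1 at either time or the same at both. Without them each rank count stayed within 1.5 times, as for Delila in callus at 24 h, from 32 to 29. Leaving features out can only lower or keep such a count, so this is a weak check. The nearest 5 features by uncentred distance shared 1 with those named for Delila and 0 for Rosea. No paired analysis was possible because the files hold 1 fold per feature for each comparison and no values by replicate. For the same reason replicates could not be left out, and normalizations and count filters were not run.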
